A study of Mus musculus with 81 samples.

Results

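Nuclear-encoded subunits of the oxidative phosphorylation (OXPHOS) complexes were followed across 3 populations of hippocampal neurons in the Ts65Dn (Ts) mouse model of Down syndrome and disomic (2N) mice. Members were the protein-coding genes whose symbols carry the subunit stems Ndufa, Ndufb, Ndufab, Ndufc, Ndufs or Ndufv with a number, Sdha to Sdhd, Uqcr, Cyc1, Cycs, Cox4 to Cox8 or Atp5. This rule uses names only, and no measured value. It found 92 of 57010 gene identifiers, with 91 symbols: 38 of complex I, 4 of complex II, 9 of complex III, the electron carrier cytochrome c (Cycs), 21 of complex IV and 19 of complex V. Of these, 83 passed the filter on low counts in at least 1 comparison and 81 in every comparison. The other 9 passed in none, and 2 of them (Ndufb11b and Cox8c) had no count in any library. A total under 200 counts over all libraries was found for 11 members. Among those 11 was a second identifier for Atp5po, with 2.8 counts over 4 libraries, so that Atp5po below means its main identifier.

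CA1 pyramidal neurons (CA1 PNs), CA3 pyramidal neurons (CA3 PNs) and dentate gyrus granule cells (DGCs) were visually identified on Nissl-stained sections and cut out in groups by laser capture, so that each library is a pool of neurons with whatever lay between them. The 81 libraries came from 28 mice, of which 25 gave all 3 populations and 3 gave 2. Ts mice carry 3 copies, against 2 in 2N mice, of a distal segment of mouse chromosome 16 on a freely segregating extra chromosome that also holds a segment of chromosome 17 without human chromosome 21 orthologs, and they were bred from Ts65Dn females and C57Bl/6J Eicher x C3H/HeSnJ F1 males. Dams received a diet with 1.1 g/kg choline chloride (ChN) or 5.0 g/kg (ChP) from conception to weaning, and every pup then had the 1.1 g/kg diet. There were 6 2N ChN, 7 2N ChP, 6 Ts ChN and 9 Ts ChP mice. Libraries numbered 6, 5, 7 and 9 for CA1 PNs of 2N ChN, Ts ChN, 2N ChP and Ts ChP mice, 6, 6, 7 and 7 for CA3 PNs, and 6, 6, 7 and 9 for DGCs. ChN mice were males of about 6 months of age (MO), and the sex and age of the ChP mice were not given in the sources used here.

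Total counts per library ran from 358355 to 4744040 (medians of 929301 in DGCs, 1071900 in CA1 PNs and 1538370 in CA3 PNs). Mitochondrially encoded genes took 4.64 to 12.2% of the counts. Marker genes separated CA3 PNs and DGCs from each other: 6 granule cell markers, Prox1 among them, summed to 1964 to 2455 CPM (counts scaled to the library size) in DGCs and to at most 144 CPM in CA3 PNs (mouse 15-140), and 5 CA3 markers to 605 to 800 CPM in CA3 PNs against 81.3 to 173 in DGCs. In CA1 PNs the median sum of 6 CA1 markers was 1453 CPM, with 3 libraries far below it: 54.3 CPM in that of mouse 16-272, 82.0 in 17-21 and 187 in 15-336. These 3 belong to 10 CA1 libraries whose 7 CA2 markers (Rgs14, Pcp4 and Amigo2 among them) summed to 523 to 2089 CPM, against 71.2 to 141 in the other 17 CA1 libraries. The same 10 held 148.6 to 648 CPM of the CA3 markers, against 4.51 to 37.96 CPM in the other 17. The main counts of called members and the mean level in CA1 PNs are therefore given also without those 10 libraries, a choice made after seeing the data, as are the LFCs of the triplicated members, while the other CA1 values include them. Mouse 15-145 is 2N by the labels of its other libraries and Ts by that of its CA3 library, which was grouped as 2N. In the CA1 library of mouse 17-154, labelled 2N ChN, both triplicated members were as high as in Ts libraries (values below), and this library is one of the 10.

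OXPHOS is the process by which mitochondria turn the energy of food into ATP. Complex I (NADH dehydrogenase) and complex II (succinate dehydrogenase) pass electrons to complex III, cytochrome c carries them on to complex IV (cytochrome c oxidase), which gives them to oxygen, and complexes I, III and IV pump protons across the inner membrane. Complex V, the ATP synthase, lets the protons flow back through its membrane rotor, whose turning drives ATP formation in the F1 head, while a peripheral stalk holds the head still. All subunits of complex II and most of the others are encoded in the nucleus, and a core of each other complex is encoded in mitochondrial DNA. Neurons rely on OXPHOS for ion pumping and synaptic transmission. The nuclear factors NRF1, GABP (an ETS factor made of Gabpa and Gabpb subunits), YY1, CREB and ESRRA are known to bind promoters of OXPHOS genes.

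2 members lie in the triplicated segment and code for the peripheral stalk of complex V. On GRCm39, the build of the deposited files, Atp5pf (factor 6) occupies chr16:84614160-84633154 on the minus strand and overlaps the 5′ end of Gabpa, which runs from 84631140 to 84660672 on the plus strand. Atp5po, which codes for the oligomycin sensitivity conferring protein OSCP at the top of the stalk, occupies chr16:91720317-91728575 on the minus strand. Promoter windows were taken from RefSeq on GRCm38.p6, 250 bases before to 50 after each annotated start, and 70 of the 92 members could be matched to 1 or more windows. They were searched on both strands for 6 exact motifs. The NRF1 core GCATGCGC was found in 11 of the 70 members (15.7%), against 3.93% of 17491 protein-coding genes, and the YY1 motif AAGATGGC in 10 (14.3%, 7 of them in complex I), against 3.57%. The CRE of CREB, TGACGTCA, was found in 5 (7.14% against 2.54%), the ETS core CCGGAAGT in 5 (7.14% against 5.69%), the ESRRA motif TCAAGGTCA in 2 (Atp5mc3 and Sdhd, 2.86% against 0.377%) and the CCAAT box CCAATCA in 5 (7.14% against 10.5%). Members and all genes were close in base composition, with median GC contents of 57.7 and 56.3%. A match is a run of letters and not a shown binding site. Shown first, 5′ to 3′ on the gene's strand with motif matches in capitals, are the triplicated members, Atp5pf (chr16:84834927-84835226, minus strand, a YY1 match that starts 88 bases before the start) and Atp5po (chr16:91931581-91931880, minus strand, no match). The Atp5pf window shown shares 247 bases with that of Gabpa on the other strand, and the starts lie 148 bases apart. A second annotated window of Atp5pf (chr16:84835576-84835875) shares 0 bases with that of Gabpa, and those starts lie 501 bases apart.
Atp5pf: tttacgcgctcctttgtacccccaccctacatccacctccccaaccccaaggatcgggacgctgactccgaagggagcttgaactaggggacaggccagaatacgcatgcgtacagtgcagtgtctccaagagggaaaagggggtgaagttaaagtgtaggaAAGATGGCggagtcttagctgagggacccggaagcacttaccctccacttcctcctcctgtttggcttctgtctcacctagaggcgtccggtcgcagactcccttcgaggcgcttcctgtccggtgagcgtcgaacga
Atp5po: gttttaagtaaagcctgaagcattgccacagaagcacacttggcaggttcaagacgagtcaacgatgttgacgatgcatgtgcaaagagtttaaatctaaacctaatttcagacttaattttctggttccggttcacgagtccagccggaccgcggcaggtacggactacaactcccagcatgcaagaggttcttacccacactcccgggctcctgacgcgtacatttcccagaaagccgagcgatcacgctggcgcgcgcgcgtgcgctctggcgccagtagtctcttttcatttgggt

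5 further windows show one or more motifs each in members that turn up in the comparisons below. They are Sdhb (chr4:140961021-140961320, plus strand, NRF1), Uqcrc1 (chr9:108936398-108936697, plus strand, overlapping NRF1 matches on both strands after the start), Cycs (chr6:50566520-50566819, minus strand, CRE and NRF1), Ndufa10 (chr1:92473709-92474008, minus strand, CRE) and Ndufb8 (chr19:44555393-44555692, minus strand, YY1 after the start). The letters in capitals are the matches.
Sdhb: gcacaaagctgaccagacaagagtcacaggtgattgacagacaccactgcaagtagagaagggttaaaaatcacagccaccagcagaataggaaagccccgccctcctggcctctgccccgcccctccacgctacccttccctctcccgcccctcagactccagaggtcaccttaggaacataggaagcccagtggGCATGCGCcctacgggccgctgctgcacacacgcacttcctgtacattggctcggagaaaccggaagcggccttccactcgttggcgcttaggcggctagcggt
Uqcrc1: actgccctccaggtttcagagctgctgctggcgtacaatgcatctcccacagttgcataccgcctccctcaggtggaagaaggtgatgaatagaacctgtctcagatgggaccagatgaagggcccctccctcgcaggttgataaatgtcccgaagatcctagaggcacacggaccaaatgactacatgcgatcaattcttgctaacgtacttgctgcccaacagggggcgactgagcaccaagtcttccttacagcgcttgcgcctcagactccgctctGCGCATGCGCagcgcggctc
Cycs: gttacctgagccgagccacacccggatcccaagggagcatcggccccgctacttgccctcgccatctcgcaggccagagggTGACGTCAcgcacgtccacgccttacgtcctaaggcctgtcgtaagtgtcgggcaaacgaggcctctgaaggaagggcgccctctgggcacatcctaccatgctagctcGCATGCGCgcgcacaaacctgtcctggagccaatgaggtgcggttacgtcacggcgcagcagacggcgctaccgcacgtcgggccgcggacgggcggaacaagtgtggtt
Ndufa10: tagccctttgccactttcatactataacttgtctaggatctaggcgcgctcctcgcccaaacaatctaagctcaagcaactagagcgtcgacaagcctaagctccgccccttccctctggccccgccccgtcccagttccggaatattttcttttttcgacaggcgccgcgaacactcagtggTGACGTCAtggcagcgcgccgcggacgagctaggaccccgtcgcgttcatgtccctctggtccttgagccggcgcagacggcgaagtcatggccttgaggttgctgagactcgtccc
Ndufb8: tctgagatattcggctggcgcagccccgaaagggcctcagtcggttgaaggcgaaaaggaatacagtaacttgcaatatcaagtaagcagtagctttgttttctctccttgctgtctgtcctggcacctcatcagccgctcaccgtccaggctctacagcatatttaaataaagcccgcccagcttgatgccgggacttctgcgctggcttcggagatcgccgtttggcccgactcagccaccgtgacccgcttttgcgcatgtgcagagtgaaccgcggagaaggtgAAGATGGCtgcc

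Levels were compared between members as TPM (transcripts scaled per length and per library), rescaled to the same sum over nuclear protein-coding genes in each library. The catalytic beta subunit of ATP synthase, Atp5f1b, had the highest level of complex V in every population, with medians of 1647, 1664 and 1569 TPM in CA1 PNs, CA3 PNs and DGCs. Cox6c, a small subunit of complex IV, had 1216, 1864 and 1224 TPM, which lay below Atp5f1b in CA1 PNs and DGCs and above it in CA3 PNs. The highest members of the other complexes were Uqcrq (complex III) at 633, 813 and 544 TPM, Sdha (the flavoprotein of succinate dehydrogenase) at 405, 472 and 385 TPM, and in complex I Ndufb10 in CA1 PNs and DGCs (481 and 340 TPM) and Ndufb8 in CA3 PNs (465.9 TPM). The median member had 200, 179 and 155 TPM in complex I, 150, 152 and 122 in complex II, 262, 197 and 205 in complex III, 329, 324 and 282 in complex IV and 404, 340 and 317 in complex V. Cox6a2, with a total under 200 counts, had a median of 0 TPM in each population. Among members with 200 counts or more, Atp5mc2, one of 3 genes for the c ring of ATP synthase, stood at the low end. It had 16.3, 10.98 and 24.0 TPM, with Ndufb4 at 17.4, 20.7 and 23.0 TPM and Sdhc at 46.6, 29.9 and 44.7 TPM. Cycs had 70.1, 49.1 and 47.9 TPM. These orders are within RSEM's assignment of reads that match several places: the 19 tested members with 50% or more of their coding sequence matched elsewhere in the genome had a median of 133, 101 and 125 TPM, against 245, 246 and 194 TPM for the other 64, and the part of such matches in the low levels was not tested. Atp5po and Cycs (100% matched) and Atp5mg and Cox7a2l (87.6% and 64.7%) are among these 19, so that their values below are less certain. The same holds for Atp5mc1, Atp5mc2, Ndufb4 and Cox5b (100% matched).

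Of the subunits that come in tissue-specific forms, these neurons used the forms known as ubiquitous. Cox4i1 had medians of 753, 871 and 729 TPM in CA1 PNs, CA3 PNs and DGCs, and its hypoxia- and lung-related partner Cox4i2 was at 0 with 4 counts over 81 libraries. The liver-type Cox6a1 had 350, 377 and 345 TPM, while the muscle-type Cox6a2 had 37 counts in 26 libraries. Cox6b1 had 308, 271 and 282 TPM and the testis form Cox6b2 8 counts. Cox8a had 681, 812 and 555 TPM, Cox8b 2 counts and Cox8c none. Cox7a2 had 179, 168 and 154 TPM and the heart and muscle form Cox7a1 14 counts. Cox7a2l, which is known to help respiratory complexes join in supercomplexes, had 87.2, 91.3 and 123 TPM. Cox7b had 365, 403 and 281 TPM and Cox7b2 16 counts. Ndufa4, found in complex IV despite its name, had 426, 425 and 397 TPM and its relative Ndufa4l2 9 counts. Cox5a (215, 199 and 162 TPM) and Cox5b (449, 456 and 422 TPM) are partners in the same enzyme rather than alternatives, and both were present. In the c ring, Atp5mc3 (423, 379 and 350 TPM) lay above Atp5mc1 (113, 101 and 81 TPM) and Atp5mc2. The coding sequences of Atp5mc1 and Atp5mc2 are matched elsewhere over 100% and that of Atp5mc3 over 0%, so this order is less certain. Atp5if1, the inhibitor that keeps ATP synthase from running backwards, had 713, 929 and 730 TPM.

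The first comparison asks how the members differ between the neuron populations of the same mice. On average members were higher in PNs than in DGCs, while their mean was close in CA1 and CA3 PNs. In every one of 27 mice the mean log2 CPM of the 81 members tested throughout (scaled with TMM, the trimmed mean of M values) was higher in CA1 PNs than in DGCs, by 0.38 (SD 0.18, from 0.11 to 0.78), and in every one of 26 mice it was higher in CA3 PNs than in DGCs, by 0.39 (SD 0.13, from 0.09 to 0.62). Between CA1 and CA3 PNs the difference was -0.01 (SD 0.21), with CA1 PNs higher in 10 of 25 mice, and its sign turned with the scale (0.056 and 13 of 25 with library totals, 0.070 and 12 of 25 on protein-coding TPM, -0.39 and 6 of 25 on deposited TPM). The mean was 5.60 ± 0.16 in CA1 PNs (SD, n = 27), 5.61 ± 0.09 in CA3 PNs (n = 26) and 5.22 ± 0.11 in DGCs (n = 28). It ran from 5.38 to 6.04, from 5.48 to 5.80 and from 5.00 to 5.43, so that libraries of CA3 PNs and DGCs did not overlap and those of CA1 PNs and DGCs did. As a share of all counts, members took 0.477 ± 0.0275% in DGCs (mean ± SD), 0.571 ± 0.0548% in CA1 PNs and 0.582 ± 0.0285% in CA3 PNs. Scaled to library totals instead of TMM, the difference from DGCs was 0.24 in CA1 PNs (higher in 27 of 27 mice) and 0.18 in CA3 PNs (24 of 26), and on log2 protein-coding TPM it was 0.23 (25 of 27) and 0.15 (24 of 26). On TPM as deposited, of which protein-coding genes hold 9.05 to 59.6% in a library, it was 0.064 (16 of 27) in CA1 PNs, with complexes II and IV below 0 (-0.020 and -0.053), and 0.45 (20 of 26) in CA3 PNs. Malat1, a long noncoding RNA kept in the nucleus, moved the other way. Its median was 28709 CPM in DGCs, 22235 in CA1 PNs and 23099 in CA3 PNs, and in 2N ChN mice its LFC was -0.34 from DGCs to CA1 PNs (adjusted p = 0.0024) and -0.39 to CA3 PNs (adjusted p = 0.00035). Long noncoding RNAs as a whole took a median of 4.73% of the counts in DGCs, 3.90% in CA1 PNs and 3.53% in CA3 PNs, and the part of these shares in the members' difference was not tested. In captured tissue a lower level per neuron and fewer neurons among other cells cannot be told apart.

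**Figure D1:**
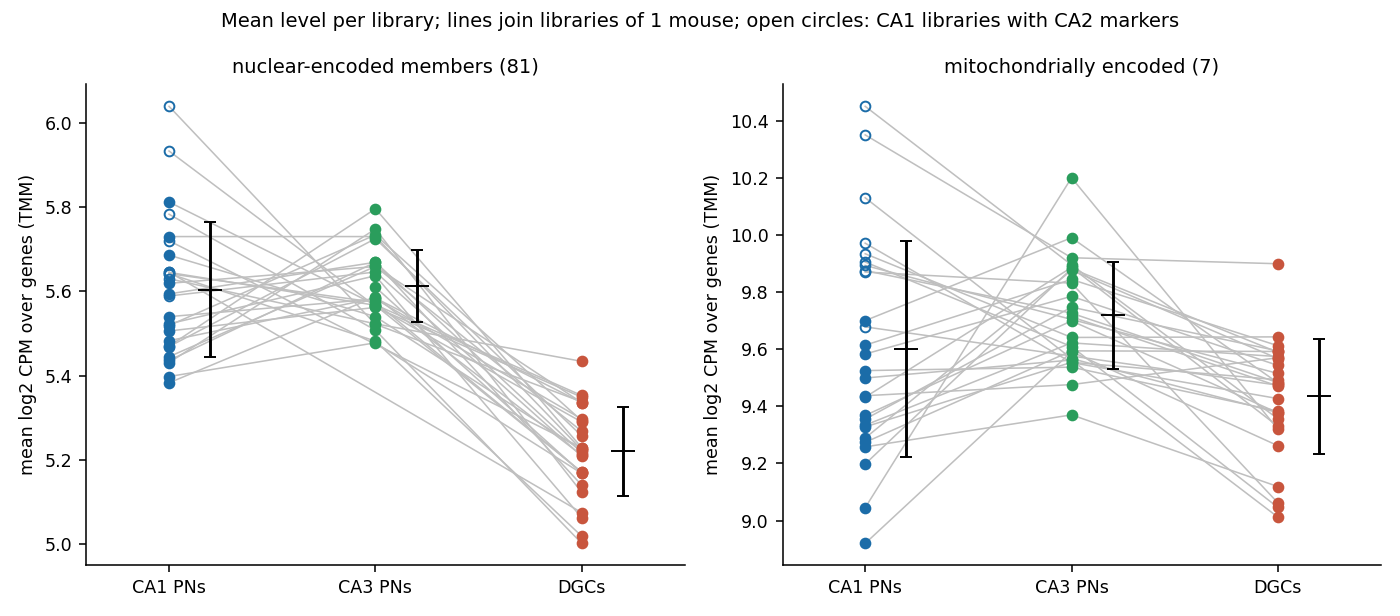
Mean log2 CPM (TMM) per library of 81 nuclear-encoded members (left) and of 7 mitochondrially encoded subunits (right) in CA1 PNs, CA3 PNs and DGCs. Lines join the libraries of 1 mouse, open circles are the 10 CA1 libraries with CA2 markers, and bars are means ± SD. On the left each line runs down from the PNs to DGCs, and on the right the open circles lie from 9.68 to 10.45 and the other CA1 libraries from 8.92 to 9.70.

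The 10 CA1 libraries with CA2 markers held more member RNA than the others. Their mean log2 CPM over members was 5.73 ± 0.15 (SD, n = 10) against 5.53 ± 0.12 (n = 17). Within mice, CA1 PNs exceeded DGCs by 0.53 with these libraries (10 of 10 mice) and by 0.29 with the other 17 (17 of 17). Against CA3 PNs they were 0.19 higher (7 of 8 mice), whereas the other 17 were 0.11 lower (difference -0.11, higher in 3 of 17). On protein-coding TPM the other 17 exceeded DGCs by 0.16 (15 of 17 mice) and differed from CA3 PNs by -0.0021 (higher in 5 of 17), while those with CA2 markers exceeded DGCs by 0.36 (10 of 10) and CA3 PNs by 0.22 (7 of 8), so the difference of the other 17 from CA3 PNs was near 0 on this scale. The part of the CA2 markers in these differences was not tested.

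By complex, the difference was found in each part of the chain on the TMM scale, and was smaller on protein-coding TPM. From DGCs to CA1 PNs the within-mouse rise in mean log2 CPM was 0.39 for complex I (27 of 27 mice), 0.36 for complex II (26), 0.44 for complex III (26), 0.67 for Cycs (26), 0.30 for complex IV (24) and 0.36 for complex V (26). From DGCs to CA3 PNs it was 0.39 for complex I (26 of 26 mice), 0.42 for complex II (25), 0.44 for complex III (26), 0.37 for Cycs (19), 0.36 for complex IV (25) and 0.37 for complex V (25). On protein-coding TPM the difference of CA3 PNs from DGCs was 0.16, 0.23, 0.10 and 0.18 for complexes I, III, IV and V, while it was 0.03 for complex II (higher in 12 of 26 mice) and -0.031 for Cycs (higher in 14 of 26). That of CA1 PNs from DGCs was 0.25 for complex I (26 of 27 mice), 0.14 for complex II (20), 0.29 for complex III (25), 0.43 for Cycs (22), 0.11 for complex IV (17) and 0.24 for complex V (22), with all CA1 libraries.

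Tested gene by gene with edgeR's quasi-likelihood test and mouse as block, members passed an adjusted p of 0.05 far more often upward than downward. In 2N ChN mice 41 of 82 tested members were higher in CA1 PNs than in DGCs and 0 lower, with a median log2 fold change (LFC) of 0.43, against 17.3% of all 14973 genes higher, 16.6% lower and a median of -0.04. At an unadjusted p under 0.05 edgeR also gave 0 lower members, as did DESeq2 and limma-voom. From DGCs to CA3 PNs 46 members were higher and 2 lower with a median of 0.47, against 21.8% higher, 21.5% lower and a median of -0.05 over all genes. Protein-coding genes of lengths like those of the members (448 to 1289 bases, 1943 genes) were higher in CA1 PNs in 14.2% and lower in 7.36%, with a median of 0.07, and in CA3 PNs 20.4% and 11.1%, also with a median of 0.07. The other mouse groups share no libraries with 2N ChN. In them CA1 PNs against DGCs gave 43 higher and 0 lower in 2N ChP mice (background 17.5% higher and 15.5% lower), 24 and 0 in Ts ChN mice (17.8% and 16.8%) and 52 and 3 in Ts ChP mice (20.2% and 19.1%), with median LFCs of 0.42, 0.28 and 0.43. CA3 PNs against DGCs gave 43 and 0 (21.7% and 20.3%), 41 and 1 (22.4% and 22.8%) and 45 and 2 (22.0% and 21.4%), with medians of 0.47, 0.42 and 0.39. Without the libraries with CA2 markers, CA1 PNs against DGCs gave 29 higher and 0 lower in 2N ChN mice (background 16.8% and 15.2%), 13 and 0 in 2N ChP mice (14.9% and 13.4%), 16 and 0 in Ts ChN mice (17.5% and 16.8%) and 30 and 2 in Ts ChP mice (17.1% and 16.3%), so that the upward counts in 2N ChP and Ts ChN mice came close to their backgrounds. Library totals in place of TMM also lowered the counts. CA1 PNs against DGCs then gave 25 higher and 1 lower in 2N ChN mice (13.6% and 22.1% of all genes), 24 and 0 in 2N ChP mice (14.3% and 20.0%), 15 and 0 in Ts ChN mice (14.9% and 20.2%) and 33 and 4 in Ts ChP mice (15.1% and 25.9%). For CA3 PNs against DGCs totals gave 31 and 2 (16.1% and 29.0%), 24 and 1 (15.7% and 28.6%), 31 and 4 (17.1% and 30.3%) and 27 and 5 (15.5% and 30.3%).

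**Figure D2:**
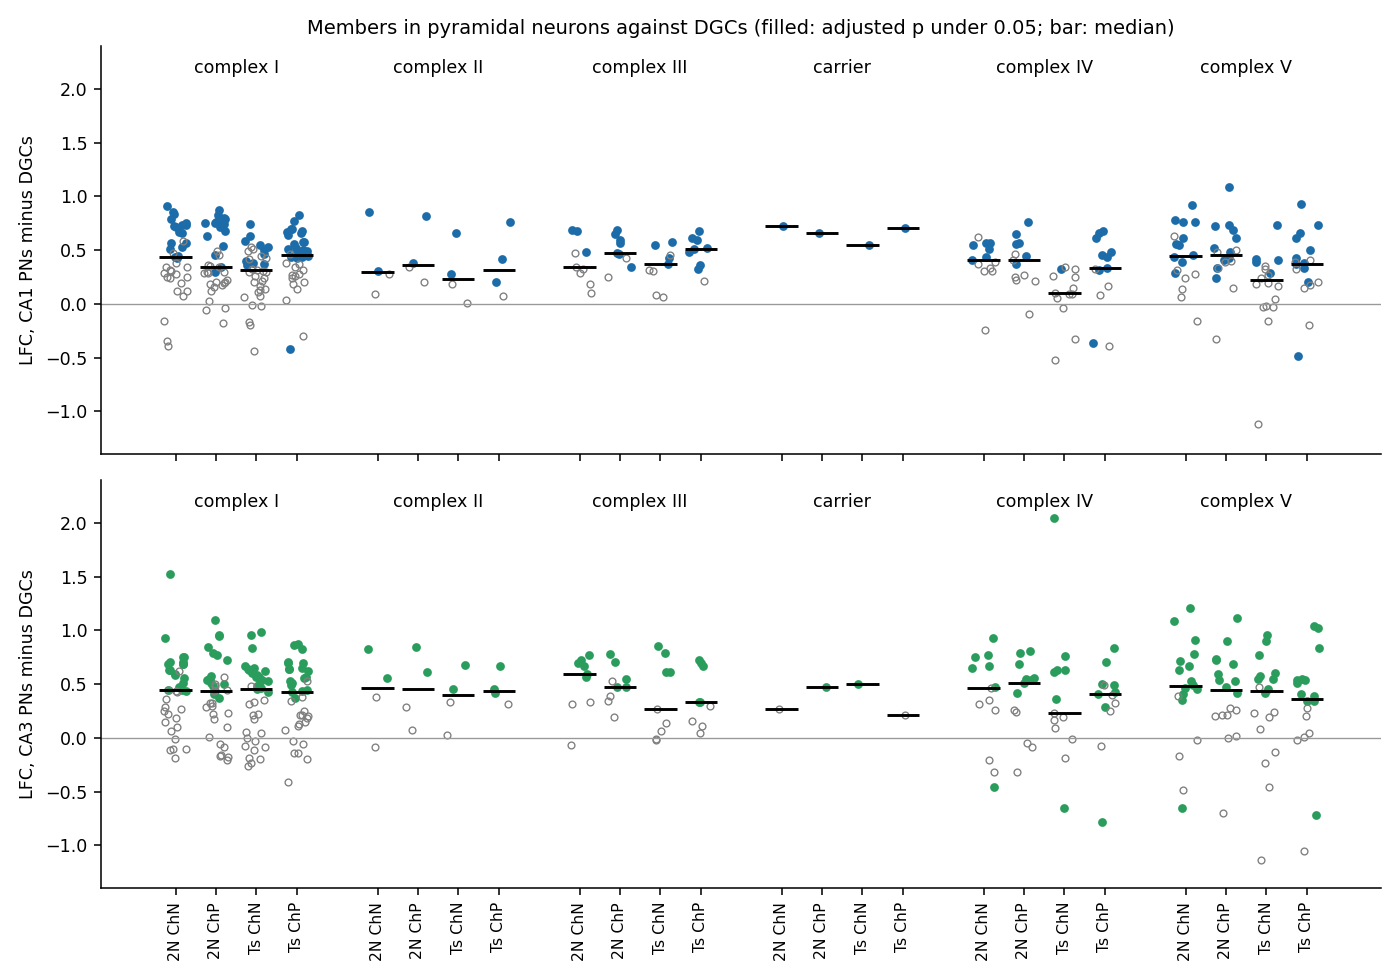
LFC of each member by complex in the 4 mouse groups, CA1 PNs against DGCs (top) and CA3 PNs against DGCs (bottom). Filled points have an adjusted p under 0.05, and bars are medians. Most points lie above 0 in each complex and mouse group.

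In complex I, 18 of 37 tested members were higher in CA1 PNs than in DGCs and 19 in CA3 PNs in 2N ChN mice. Both shares lay above those of all genes called higher in these comparisons, which are given above. The 7 core subunits of the matrix arm hold the flavin and the iron-sulfur clusters that take electrons from NADH. Of these, 6 and 5 were called, also above those shares, with median LFCs of 0.51 and 0.60. Ndufv1 and Ndufs1 of this core, which carry the NADH site and several of the clusters, were higher in all 4 mouse groups in both PN populations. In CA1 PNs Ndufs1 lost a call without the libraries with CA2 markers, and both genes lost a call with library totals. In CA3 PNs library totals also took a call from Ndufs1, whereas Ndufv1 kept all 4. Ndufa10, an accessory subunit of the membrane arm whose promoter holds the CRE printed above, had 80.3, 102.5 and 160.6 CPM in CA1 PNs (lowest, median and highest of 6 2N ChN libraries), 112, 124.5 and 133 in CA3 PNs and 51.3, 59.9 and 82.2 in DGCs. CA3 PNs and DGCs did not overlap, and CA1 PNs met DGCs only at the ends of their ranges. Its LFC to DGCs was 0.73 ± 0.14 (SE) in CA1 PNs (adjusted p = 4.4e-05) and 0.93 ± 0.13 in CA3 PNs (adjusted p = 3.3e-07). In the other mouse groups it was 0.75, 0.59 and 0.70 in CA1 PNs and 0.85, 0.96 and 0.71 in CA3 PNs (2N ChP, Ts ChN and Ts ChP).

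Ndufa11, a membrane arm subunit, had the largest LFC of the members between CA3 PNs and DGCs in 2N ChN mice, though not in each of the other mouse groups. It had 46.3, 55.3 and 64.6 CPM there, 26.2, 35.8 and 51.4 CPM in CA1 PNs and 10.4, 19.5 and 23.8 CPM in DGCs, and no library of DGCs reached either PN population. Its LFC from DGCs to CA3 PNs was 1.52 ± 0.17 (adjusted p = 1.6e-09), with 1.10, 0.99 and 0.88 in 2N ChP, Ts ChN and Ts ChP mice. Ndufa13, an accessory subunit also known as GRIM-19, had 77.9, 94.1 and 134.7 CPM in CA1 PNs, 78.4, 96.1 and 107.5 in CA3 PNs and 42.4, 56.0 and 66.1 in DGCs, with an LFC from DGCs to CA1 PNs of 0.79 ± 0.12 (adjusted p = 2.8e-06) and 0.79, 0.46 and 0.64 in the other groups. Ndufa5, of the matrix arm, had 51.5, 62.5 and 76.0 CPM in CA1 PNs, 40.7, 51.7 and 54.9 in CA3 PNs and 28.3, 34.3 and 40.4 in DGCs. Its LFC to CA1 PNs was 0.86 ± 0.15 (adjusted p = 1.6e-05), with 0.74, 0.74 and 0.66 elsewhere. Both genes separated each PN population from DGCs without overlap in 2N ChN mice.

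In complex II, Sdhb, the iron-sulfur subunit, had 59.8, 80.2 and 85.6 CPM in CA1 PNs, 63.5, 77.1 and 86.9 CPM in CA3 PNs and 32.1, 41.4 and 58.7 CPM in DGCs, again without overlap between PNs and DGCs. Its LFC from DGCs to CA1 PNs was 0.86 ± 0.15 (adjusted p = 1.3e-05) and 0.82, 0.66 and 0.77 in the other mouse groups. Sdha and Sdhb were higher in all 4 mouse groups in both PN populations. In CA1 PNs Sdhb kept these calls without the libraries with CA2 markers and with library totals, whereas Sdha lost a call under each. In complex III, 3 of 9 members passed in CA1 PNs and 6 in CA3 PNs, above the shares of all genes called higher, which are given above. Uqcrc1 and Uqcrfs1, a core protein and the Rieske iron-sulfur protein, did so in all 4 mouse groups in both. Without the libraries with CA2 markers neither was called in CA1 PNs in all 4 groups. With library totals Uqcrc1 kept its calls in both PN populations and Uqcrfs1 did not. Cycs was higher in CA1 PNs of 2N ChN mice (LFC 0.72), where it had 37.6, 50.4 and 59.6 CPM against 23.6, 29.5 and 37.5 in DGCs and 29.0, 39.2 and 43.4 in CA3 PNs. In complex IV, 6 of 13 passed in each PN population, again above the shares of all genes, and 1 was lower in CA3 PNs. That 1 was Cox7a2l (64.7% matched elsewhere), with an LFC of -0.46 (adjusted p = 0.033) and no call in the other mouse groups (-0.08, -0.18 and -0.08).

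In complex V, 11 of 18 members were higher in CA1 PNs and 13 in CA3 PNs of 2N ChN mice. Both shares lay above those of all genes called higher, which are given above. All 5 subunits of the F1 head passed in CA3 PNs (median LFC 0.66) and 4 in CA1 PNs (0.43), and of the peripheral stalk 4 of 4 passed in CA3 PNs (0.52) and 3 in CA1 PNs (0.50), whereas 1 of 3 c ring genes passed in each. The c ring genes Atp5mc1 and Atp5mc2 are matched elsewhere over 100% of their coding sequence, as are Atp5pd and Atp5po of the stalk. The other stalk genes, Atp5pb and Atp5pf, are matched over 90.1% and 27.8%. The F1 subunits are matched over 0%. Without the libraries with CA2 markers, the counts of members called higher in CA1 PNs of 2N ChN mice were 14 of 37 in complex I (5 of 7 in the matrix arm core), 2 of 4 in complex II, 2 of 9 in complex III, 1 of 12 in complex IV and 9 of 18 in complex V, with 3 in the F1 head, 2 in the stalk and 1 in the c ring. The share of all genes called higher in this fit is given above. Complex IV lay below that share, and complex III lay near it. Atp5f1a, the F1 alpha subunit, had 648, 699 and 758 CPM in CA3 PNs, 508, 571 and 699 CPM in CA1 PNs and 411, 424 and 485 CPM in DGCs, with an LFC from DGCs to CA3 PNs of 0.66 ± 0.10 (adjusted p = 3.4e-07). Atp5po of the stalk had an LFC of 1.08 ± 0.13 to CA3 PNs (adjusted p = 1.7e-08) and of 0.76 ± 0.14 to CA1 PNs (adjusted p = 3.2e-05). In the other mouse groups it was 0.90, 0.90 and 1.04 in CA3 PNs and 0.52, 0.42 and 0.61 in CA1 PNs. Atp5mj, a small membrane subunit, had 30.9, 54.0 and 76.7 CPM in CA3 PNs and 17.0, 22.4 and 31.2 CPM in DGCs, with an LFC of 1.21 ± 0.18 (adjusted p = 1.0e-06) and 1.12, 0.96 and 1.03 in the other groups. Atp5mg, subunit g of the membrane part, went the other way, with 87.6% of its coding sequence matched elsewhere in the genome. It had 8.14, 14.3 and 16.3 CPM in CA3 PNs and 18.1, 22.0 and 24.7 CPM in DGCs, with no overlap, and its LFC was -0.65 in 2N ChN mice (adjusted p = 0.015) and -0.72 in Ts ChP mice (adjusted p = 0.0067), but 0.02 and -0.46 with no call in 2N ChP and Ts ChN mice.

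Over the 4 mouse groups, 17 members were called higher in CA1 PNs than in DGCs in all 4, 68 had an LFC above 0 in all 4 and 19 were called higher in none. Of the genes tested in all 4 groups, 12.4%, 32.7% and 72.4% met these rules. For CA3 PNs against DGCs the counts were 30, 58 and 26, against 16.7%, 35.9% and 68.9% of all genes. The 14 members called higher in all 4 groups in both PN populations (8.81% of all genes were) are Ndufa10, Ndufa13, Ndufb8, Ndufb10, Ndufs1, Ndufv1 and Ndufv2 of complex I, Sdha and Sdhb of complex II, Uqcrc1 and Uqcrfs1 of complex III, and Atp5f1a, Atp5f1d and Atp5po of complex V. No member of complex IV is among them. These counts rested on all CA1 libraries and on TMM. Without the 10 libraries with CA2 markers 7 of 81 members were called higher in CA1 PNs in all 4 groups, against 11.2% of all genes, which is no more than the background, and 6 of the 14 kept their calls (Ndufa10, Ndufa13, Ndufv1, Ndufv2, Sdhb and Atp5f1d). With library totals 10 members were called in CA1 PNs (10.2% of all genes), 18 in CA3 PNs (12%) and 8 in both. Both comparisons share the DGC libraries, so they are not independent. Counted within mice, 9 members were higher in CA1 PNs in 27 of 27 mice, with median log2 differences from 0.36 (Atp5f1a) to 0.82 (Sdhb), and 17 were higher in CA3 PNs in 26 of 26 mice, with Atp5po at 1.05, Atp5mj at 0.98 and Ndufa11 at 0.95. Of all genes 7.9% and 12.6% were higher in every mouse. Over the 17 mice without CA2 markers in the CA1 library 9 members were higher in each, and 11% of all genes, so that the members' share was near the background.

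Between CA1 and CA3 PNs, 5 to 19 members differed in a mouse group. In 2N ChN mice 1 member was higher in CA1 PNs and 4 lower of 82 (background 10.9% and 12.2%, median LFC -0.05). In 2N ChP mice 2 were higher and 6 lower (11.6% and 13%, median 0.01), in Ts ChN mice 3 and 16 (12.4% and 13.3%, -0.12) and in Ts ChP mice 6 and 5 (12.5% and 13%, 0.01). The higher member in 2N ChN mice was Cycs (LFC 0.45, adjusted p = 0.036), with 0.50 in Ts ChP mice (adjusted p = 0.0076) and no call in 2N ChP and Ts ChN mice (0.19 and 0.04). The lower ones were Ndufa11 (-0.62, adjusted p = 0.0033), Atp5if1 (-0.44, adjusted p = 0.017), Cox4i1 (-0.36, adjusted p = 0.033) and Atp5f1e, the F1 epsilon subunit (-0.67, adjusted p = 0.047). Of these, Ndufa11, Cox4i1 and Atp5f1e were called again in Ts ChN mice (-0.54, -0.31 and -0.58) but not in 2N ChP mice (-0.35, -0.18 and 0.27) or Ts ChP mice (-0.30, -0.16 and -0.06). In 2N ChN mice Cox4i1 had 74.1, 132 and 165 CPM in CA1 PNs and 150, 161 and 173 CPM in CA3 PNs, and Atp5f1e 10.3, 17.1 and 31.2 CPM and 13.02, 29.9 and 36.2 CPM, so the libraries of the populations overlapped for both. Atp5if1 was the 1 member called lower in CA1 PNs in all 4 mouse groups (-0.39, -0.58 and -0.35 in the other 3). It had 66.4, 97.9 and 120.7 CPM in CA1 PNs, 94.4, 125 and 178 CPM in CA3 PNs and 64.9, 78.7 and 84.8 CPM in DGCs of 2N ChN mice.

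This comparison depended on the libraries with CA2 markers. Without them, 2 members were higher and 12 lower in CA1 PNs in 2N ChN mice (background 12.9% and 14.8%, median LFC -0.15), 1 and 18 in 2N ChP mice (12.8% and 14.7%, -0.16), 3 and 20 in Ts ChN mice (14.4% and 16.1%, -0.14) and 4 and 16 in Ts ChP mice (14.3% and 16.0%, -0.08). The share of lower members was above its background in the last 3 groups. In 2N ChN mice the 5 calls became 13 with mouse 17-21 left out, 1 without mouse 17-172 and 2 without mouse 15-147.

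Markers of other cells also moved with the populations, and their part in the members' differences was not tested. In CA3 PNs 6 oligodendrocyte markers summed to 254 to 531 CPM, against 99.6 to 242 in DGCs and 104 to 326 in CA1 PNs, with 4 of 6 higher in CA3 PNs than in DGCs of 2N ChN mice. Their defining gene Mog had a median of 0 CPM in DGCs, 0.96 in CA1 PNs and 2.57 in CA3 PNs. Astrocyte markers summed to 214 to 396 CPM in CA3 PNs, 164 to 293 in DGCs and 155 to 281 in CA1 PNs, with 4 of 6 higher in CA3 PNs than in DGCs. Inhibitory neuron markers summed to 142 to 451 CPM in CA1 PNs, 129 to 363 in CA3 PNs and 171 to 326 in DGCs. In both PN populations 5 of 7 were higher than in DGCs and 1 lower, and Sst and Vip had a median of 0 in DGCs. Of 6 vascular markers 2 were higher in CA3 PNs, and no microglial marker differed. Oligodendrocyte and astrocyte markers were also lower in CA1 than in CA3 PNs of 2N ChN mice (5 of 6 in each list).

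The core subunits encoded in mitochondrial DNA were set beside the nuclear-encoded members. Of 13 genes, 7 could be tested, and the other 6 (mt-Nd3, mt-Nd4l, mt-Co2, mt-Co3, mt-Atp6 and mt-Atp8) had at most 2 counts over all libraries. The coding sequence of those 6 was matched in the nuclear genome over 99.1 to 100% of its length, as was that of mt-Co1, which was counted. Over the 7 tested genes the mean log2 CPM was 9.44 ± 0.20 in DGCs (SD), 9.60 ± 0.38 in CA1 PNs and 9.72 ± 0.19 in CA3 PNs. Within mice it was higher in CA3 PNs than in DGCs by 0.29 (24 of 26 mice), and in CA1 PNs by 0.17 (17 of 27). These differences depended on the scale. With library totals they were 0.069 (17 of 26) and 0.017 (13 of 27), and on protein-coding TPM -0.016 (9 of 26) and -0.025 (10 of 27). The CA1 value joined unlike libraries. In the 10 with CA2 markers the mitochondrial mean was 10 ± 0.24 (SD) and exceeded that of DGCs by 0.58 (10 of 10 mice) and that of CA3 PNs by 0.34 (8 of 8), whereas in the other 17 it was 9.36 ± 0.20, with differences of -0.074 from DGCs (higher in 7 of 17) and -0.36 from CA3 PNs (higher in 0 of 17). The nuclear-encoded members were higher in CA1 PNs than in DGCs in all of those 17 mice on the same TMM scale, and in 15 of 17 on protein-coding TPM. Over all mice, the nuclear-encoded difference minus the mitochondrial one was 0.21 in CA1 PNs (SD 0.33, above 0 in 21 of 27 mice) and 0.10 in CA3 PNs (SD 0.27, 17 of 26). In 2N ChN mice mt-Nd5 (LFC 0.78, adjusted p = 0.013) and mt-Nd1 (0.32, adjusted p = 0.019), subunits of complex I, were higher in CA3 PNs than in DGCs, and of the 7 none passed in CA1 PNs.

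Other lists of related genes are given for comparison, and no test compared them with the members. Of 52 assembly factors of the OXPHOS complexes, 7 passed upward and 0 downward from DGCs to CA1 PNs of 2N ChN mice (median LFC 0.22), and 9 and 0 from DGCs to CA3 PNs (0.24), shares not above the 17.3% and 21.8% of all genes called upward. Of 78 mitochondrial ribosomal proteins 6 were higher and 2 lower in CA1 PNs (0.16), and 10 and 4 in CA3 PNs (0.10), below the background in both directions. Of 90 tested genes with names of cytosolic ribosomal proteins, a list that also takes in 10 Rps6k kinases, 1 was higher and 25 lower in CA1 PNs (-0.27), and 4 and 31 in CA3 PNs (-0.32). Of all genes 16.6% and 21.5% were called lower in these comparisons, so the ribosomal share was above the downward background and that of the assembly factors below it. Of 16 transcriptional regulators 15 could be tested against DGCs in 2N ChN mice, of which 2 were higher and 2 lower in CA1 PNs and 1 and 4 in CA3 PNs. Nrf1 and Yy1, whose motifs were searched above, were not called there (LFCs of 0.03 and -0.20 in CA1 PNs, -0.37 and -0.11 in CA3 PNs), and in the other mouse groups Nrf1 was not called and Yy1 was called once (-0.49 in CA1 PNs of 2N ChP mice). Ppargc1a and Esrra, the coactivator PGC-1 alpha and the nuclear receptor through which it acts, were called higher in CA1 PNs than in DGCs in all 4 mouse groups, with LFCs of 0.89, 0.92, 0.49 and 0.52 and of 0.83, 0.72, 1.10 and 0.65 (2N ChN, 2N ChP, Ts ChN and Ts ChP). In CA3 PNs Ppargc1a was called in 2N ChP mice only (0.22, 0.41, 0.22 and 0.01) and Esrra in no group (0.17, 0.29, 0.47 and -0.25). Pprc1, a coactivator related to PGC-1 alpha, had LFCs of -0.52, -0.17, -0.38 and -0.26 in CA1 PNs, called in 2N ChN mice only, and of -0.47, -0.33, -0.50 and -0.48 in CA3 PNs, called in all but 2N ChP mice. Lrpprc, which stabilizes mitochondrial mRNAs, was higher in CA3 PNs than in DGCs in all 4 (0.59, 0.51, 0.59 and 0.43). Of the GABP genes, Gabpb2 had LFCs of -1.36, -1.56, -1.39 and -1.46 in CA1 PNs and -1.86, -1.85, -1.99 and -1.64 in CA3 PNs, and Gabpa -1.04, -0.50, -0.98 and -0.85 in CA3 PNs, all called. In CA1 PNs Gabpa was called in Ts ChP mice only (-0.16, -0.11, -0.21 and -0.36), and Gabpb1 in CA3 PNs of 2N ChN mice only (-0.77).

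The second comparison asks what the extra chromosome changed in each population. The members that differed between Ts and 2N mice after adjustment were the 2 triplicated ones, and none of the others passed in any of the 6 comparisons. In ChN mice 0 of 81 members passed in CA1 PNs (background 0.00814% of all genes) and 2 each in CA3 PNs and DGCs, of 82 and 81 tested (0.662% and 0.588%). In ChP mice DGCs gave 1 of 82 (0.445%), CA3 PNs 2 of 81 (0.249%) and CA1 PNs 0 of 82 (0.049%). For CA1 PNs the counts at an unadjusted p are given below, and DESeq2 and limma-voom gave 0 as well. Whether a member is triplicated follows from its position and not from these values. The ratio of 3 copies to 2 is 0.58 on the log2 scale.

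Atp5po had LFCs from 2N to Ts of 0.30 ± 0.18 (SE, adjusted p = 1.0) in CA1 PNs, 0.45 ± 0.09 (adjusted p = 0.0014) in CA3 PNs and 0.67 ± 0.12 (adjusted p = 0.00039) in DGCs of ChN mice. In ChP mice they were 0.53 ± 0.16 (adjusted p = 0.79), 0.52 ± 0.10 (adjusted p = 0.0046) and 0.42 ± 0.12 (adjusted p = 0.11). Per library it had 109.9, 120.7 and 137.6 CPM (lowest, median and highest) in CA3 PNs of 2N ChN mice and 153.5, 168.9 and 187.7 CPM in those of Ts ChN mice, and the groups did not overlap. In DGCs it had 48.2, 56.7 and 66.5 CPM in 2N ChN and 70.5, 93.7 and 105.2 CPM in Ts ChN mice, also without overlap. In CA1 PNs the 2N ChN libraries ran from 65.4 to 147 CPM (median 89.6) and the 5 Ts ChN libraries had 90.6, 117.5, 118.8, 125.4 and 161.2 CPM, so that the ranges overlapped. In ChP mice it had 66.1, 88.8 and 127.1 CPM in 2N and 79.0, 133 and 202.1 CPM in Ts for CA1 PNs, 77.9, 112.1 and 147.3 against 139.2, 168.7 and 193.9 CPM for CA3 PNs, and 42.2, 65.1 and 79.8 against 75.8, 81.4 and 103.6 CPM for DGCs, with overlap in each.

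Atp5pf had LFCs of 0.16 ± 0.19 (adjusted p = 1.0) in CA1 PNs, 0.46 ± 0.09 (adjusted p = 0.0015) in CA3 PNs and 0.54 ± 0.11 (adjusted p = 0.0041) in DGCs of ChN mice, and of 0.47 ± 0.17 (adjusted p = 1.0), 0.45 ± 0.09 (adjusted p = 0.0081) and 0.62 ± 0.11 (adjusted p = 9.6e-05) in ChP mice. In ChN mice it had 103.3, 114.7 and 137.1 CPM in CA3 PNs of 2N mice against 143.9, 158.5 and 181.6 CPM in Ts mice, and 65.1, 74.6 and 82.1 CPM in DGCs of 2N mice against 88.9, 103.8 and 141.2 CPM in Ts mice, with no overlap in either population. In ChP mice DGCs had 43.2, 72.8 and 92.9 CPM in 2N and 94.7, 109.8 and 121.4 CPM in Ts mice, again without overlap, and CA3 PNs 95.4, 112.6 and 147.1 against 142.5, 154.4 and 188.7 CPM, which overlapped. In CA1 PNs the 6 2N ChN libraries ran from 70.2 to 154.9 CPM (median 86.5) and the 5 Ts ChN libraries had 101.9, 103.9, 111.9, 113.2 and 135.9 CPM. For ChP mice the CA1 values were 71.7, 77.4 and 132.2 CPM in 2N and 100.6, 115.5 and 220.0 CPM in Ts.

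The highest 2N ChN values of both genes in CA3 PNs (137.1 CPM for Atp5pf and 137.6 CPM for Atp5po) came from mouse 15-145, whose CA3 library is labelled Ts. Both lay below the Ts ChN libraries. With this library under its own label the LFCs in CA3 PNs were 0.47 for Atp5pf (adjusted p = 0.017) and 0.43 for Atp5po (adjusted p = 0.041).

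The highest 2N ChN values of both genes in CA1 PNs came from mouse 17-154 (154.9 CPM for Atp5pf and 147 CPM for Atp5po). In CA3 PNs and DGCs the same mouse had 107.3 and 76.5 CPM of Atp5pf and 134.7 and 55.8 CPM of Atp5po, inside the 2N ranges. Without this CA1 library the LFC in CA1 PNs of ChN mice was 0.33 for Atp5pf and 0.45 for Atp5po. Without all 10 libraries with CA2 markers it was 0.20 and 0.44 in ChN mice and 0.54 and 0.53 in ChP mice, with no adjusted call (smallest adjusted p = 0.054).

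**Figure D3:**
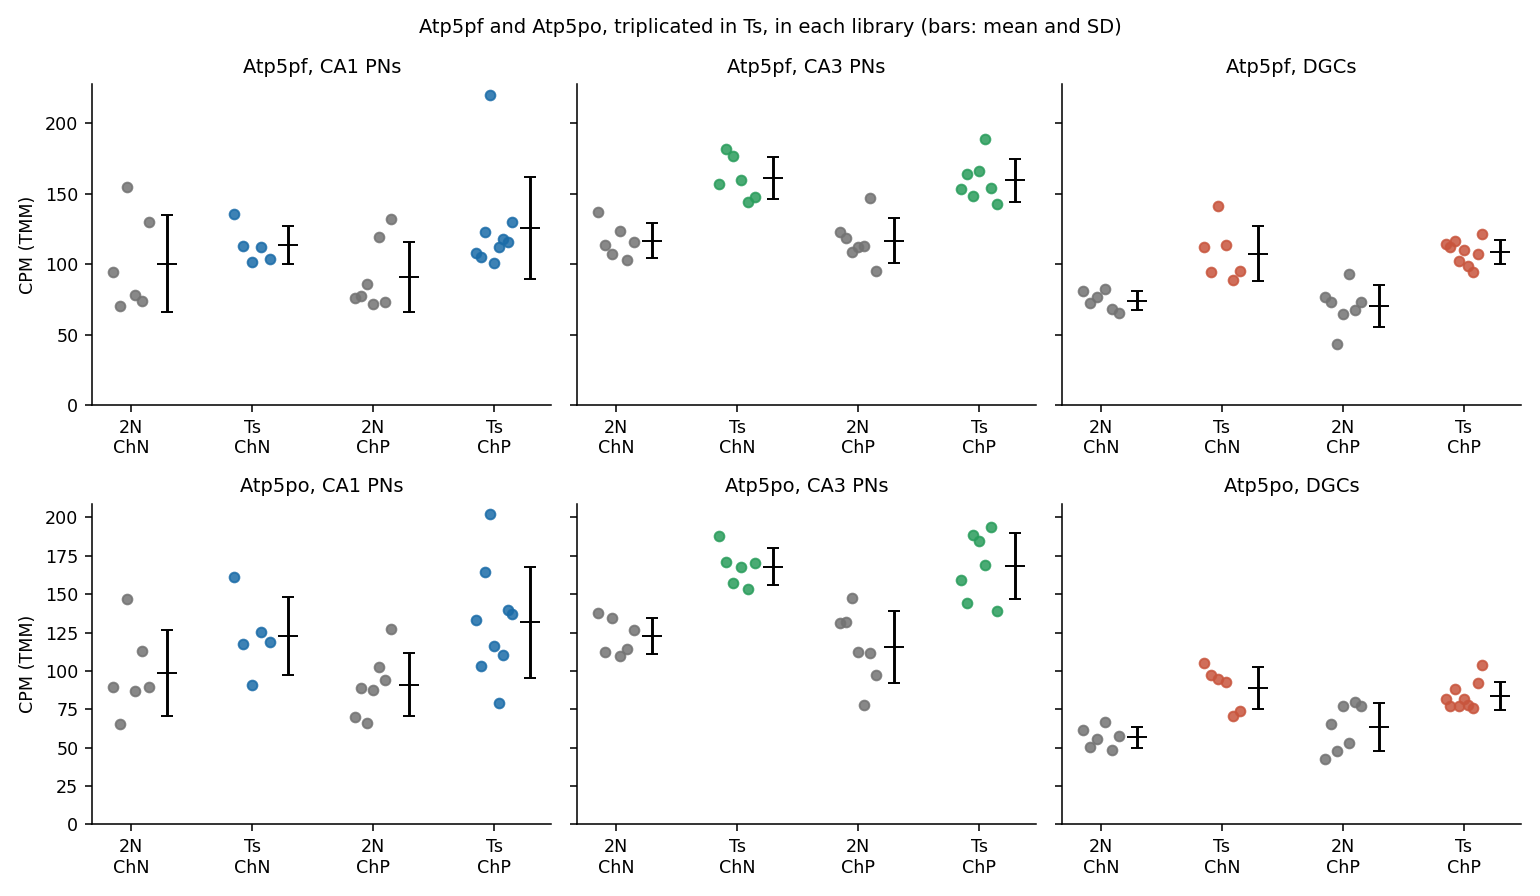
CPM per library of Atp5pf (top) and Atp5po (bottom) in CA1 PNs, CA3 PNs and DGCs for the 4 mouse groups, with means ± SD. In CA3 PNs and DGCs of ChN mice every Ts library lies above every 2N library for both genes. In CA1 PNs the groups overlap.

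Gabpa, which overlaps Atp5pf on the other strand and is triplicated too, had LFCs of 0.26, 0.42 and 0.35 in CA1 PNs, CA3 PNs and DGCs of ChN mice (adjusted p = 1.0, 0.30 and 0.39) and of 0.46, 0.37 and 0.69 in ChP mice (adjusted p = 1.0, 0.87 and 0.0017). The kit marks strand, but whether the counting used it is not given in the sources used here, so reads of the overlap may have been shared between both genes. Gabpb2, which is not triplicated, was lower in DGCs of Ts ChP mice (LFC -0.46 ± 0.11, adjusted p = 0.027). Of the assembly factors and mitochondrial ribosomal proteins none passed in any of the 6 comparisons.

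No member outside the triplicated segment passed the adjusted threshold. Their unadjusted calls, without Atp5pf and Atp5po, are given for scale, since unadjusted p under 0.05 is the threshold of the study. In ChN mice 0 of 79 were higher and 6 lower in CA1 PNs (background 1.78% and 1.99%), so that all unadjusted calls there were in 1 direction, 2 and 5 of 80 in CA3 PNs (4.9% and 4.3%), and 6 and 1 of 79 in DGCs (4.55% and 3.96%). In ChP mice 0 and 0 of 80 passed in CA1 PNs (2.14% and 1.46%), 1 and 0 of 79 in CA3 PNs (2.67% and 2.32%), and 2 and 2 of 80 in DGCs (3.95% and 3.65%). Without the libraries with CA2 markers CA1 PNs gave 1 higher and 5 lower of 79 in ChN mice (background of that fit 3.24% and 3.58%) and 1 and 0 of 79 in ChP mice (3.63% and 2.94%). Over all members, triplicated ones included, the median LFC was -0.08, -0.09 and 0.06 in ChN mice and 0.01, -0.03 and 0.04 in ChP mice (CA1 PNs, CA3 PNs and DGCs). With 1 mouse left out the ChN medians ran from -0.13 to -0.0097 in CA1 PNs (the latter without mouse 17-21), from -0.12 to -0.041 in CA3 PNs and from 0.022 to 0.082 in DGCs. Markers of other cells also moved with genotype. In CA3 PNs of ChN mice the 7 inhibitory neuron markers summed to 140.0 to 363 CPM in 2N (median 273) and 129 to 171 in Ts libraries (154), with 5 of 7 lower at an unadjusted p and none after adjustment. In DGCs of ChP mice they summed to 171 to 251.5 CPM in 2N (216) and 223 to 326 in Ts (279), with Gad2 higher after adjustment, and 6 astrocyte markers to 164 to 223 CPM (194.5) and 198 to 293 (253), with Aldoc higher. Their part in the members' values was not tested. In CA1 PNs of ChN mice the smallest p-values were those of Ndufa13 and Cox6c. Ndufa13 had 77.9, 94.1 and 134.7 CPM in 2N and a range of 51.8 to 77.9 CPM in Ts libraries (LFC -0.59 ± 0.16, adjusted p = 1.0), and Cox6c 130.8, 207.6 and 338.9 CPM in 2N and 126 to 158 CPM in Ts (LFC -0.62 ± 0.21, adjusted p = 1.0). With no filter on low counts Cox6c was the 1 member that passed in CA1 PNs of ChN mice. In CA3 PNs of ChN mice Ndufb1 (LFC -0.66 ± 0.23, adjusted p = 0.24) and Ndufa11 (-0.34 ± 0.13, adjusted p = 0.32) had the smallest p among the lower members, and in DGCs Uqcrq (-0.35 ± 0.14, adjusted p = 0.48). In ChP mice those with small p-values included Atp5me in CA3 PNs (higher, LFC 0.51, adjusted p = 0.70) and Atp5f1d in DGCs (lower, -0.24, adjusted p = 0.65). None of these passed the adjusted threshold.

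**Figure D4:**
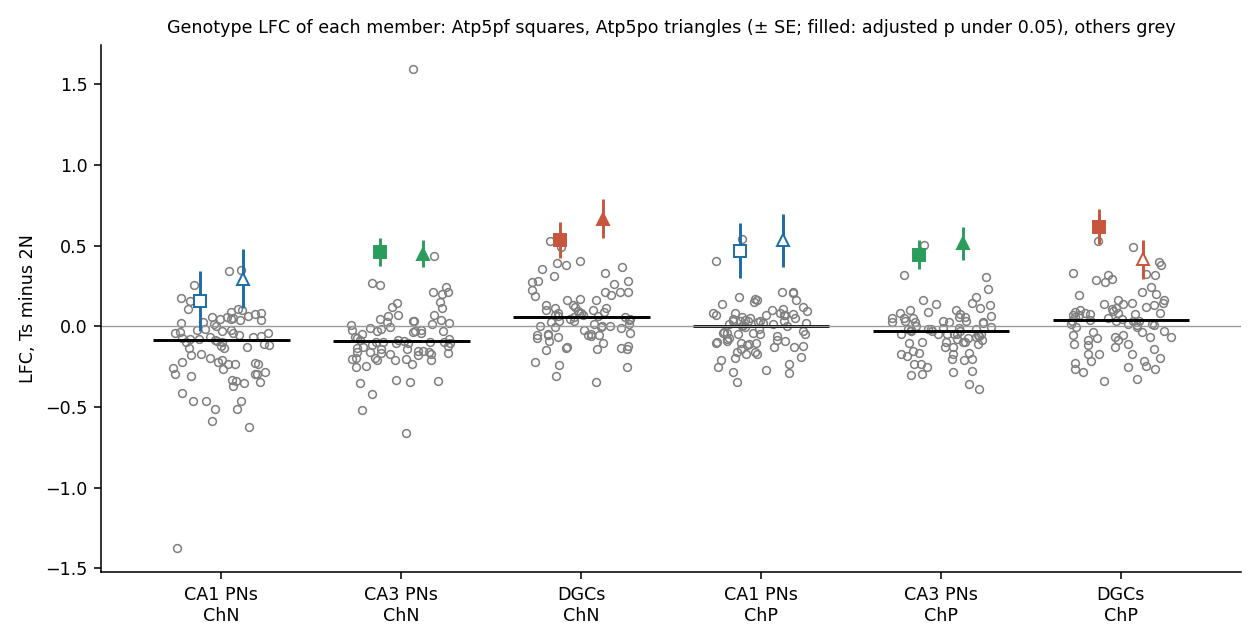
LFC from 2N to Ts of each member in the 3 populations and 2 diets. Squares are Atp5pf and triangles Atp5po, with bars for SE and filled where the adjusted p is under 0.05. Grey points are the other members and horizontal bars the medians, which lie between -0.09 and 0.06.

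Whether the genotype difference itself varied between populations was tested in ChN and ChP mice, with mouse as block. No member passed an adjusted p of 0.05 in any of the 6 tests (background 0.0%, 0.0% and 0.0224% for CA1 against CA3 PNs, CA1 PNs against DGCs and CA3 PNs against DGCs in ChN mice, and 0.0%, 0.00542% and 0.00542% in ChP mice). At an unadjusted p under 0.05 edgeR gave 4, 5 and 7 members in ChN mice, against 3.66%, 4.9% and 4.33% of all genes, and 1, 2 and 1 in ChP mice, against 3.52%, 4.25% and 3.93%. DESeq2 and limma-voom gave no adjusted call either. For Atp5pf and Atp5po the genotype LFC in CA1 PNs minus that in DGCs was -0.36 ± 0.18 and -0.36 ± 0.18 in ChN mice (adjusted p = 1.0 for both), and -0.15 ± 0.19 and 0.10 ± 0.22 in ChP mice. In ChN mice the smallest p-values for CA1 against CA3 PNs were those of Ndufa13 (-0.40), Ndufb11 (-0.60) and Uqcr10 (0.72), for CA1 PNs against DGCs those of Atp5me (-0.95), Uqcrc2 (0.44) and Cox5b (-0.49), and for CA3 PNs against DGCs those of Uqcrh (-0.55) and Cox5a (-0.54). In ChP mice they were Atp5me (-0.78) for CA1 against CA3 PNs, Atp5me (-0.76) and Ndufb7 (0.49) for CA1 PNs against DGCs, and Atp5mg (-0.74) for CA3 PNs against DGCs.

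The third comparison asks whether the diet of the dam, set before weaning, left a difference in the members. None passed an adjusted p of 0.05 for diet in 2N mice, for diet in Ts mice or for the difference of the genotype LFC between diets in any population with edgeR, DESeq2 or limma-voom. The background was 0.0% of all genes for the 3 tests in CA1 PNs, 0.012%, 0.0% and 0.0% in CA3 PNs and 0.00605%, 0.0% and 0.0% in DGCs. At an unadjusted p under 0.05 edgeR gave 2, 4 and 2 members in CA1 PNs for diet in 2N, diet in Ts and the interaction (3.27%, 3.05% and 3.22% of all genes), 3, 3 and 3 in CA3 PNs (4.9%, 4.19% and 4.87%) and 2, 2 and 4 in DGCs (5.82%, 3.81% and 3.97%). Without the libraries with CA2 markers CA1 PNs gave no adjusted call either, and 5, 4 and 7 of 81 members at an unadjusted p, against 5.73%, 3.3% and 5.09% of all genes in those fits. Median LFCs over members from ChN to ChP were 0.03, -0.01 and 0.03 in 2N mice and 0.14, 0.04 and 0.02 in Ts mice (CA1 PNs, CA3 PNs and DGCs). Some of these changed sign with 1 mouse left out: in 2N mice they ran from -0.046 to 0.086 in CA1 PNs and from -0.025 to 0.0097 in CA3 PNs, and in Ts mice from -0.0043 to 0.067 in DGCs. Without the libraries with CA2 markers the CA1 median was -0.043 in 2N and 0.10 in Ts mice. Litters and preparation batches of the diet groups and the sex and age of the ChP mice were not given in the sources used here. These cannot be told apart from diet.

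The members with the smallest p-values for diet are given by their LFCs, and none passed the adjusted threshold. In 2N mice they were Cox7a2 (0.45) and Atp5f1e (0.51) in CA1 PNs, Ndufb1 (-0.52), Atp5f1e (-0.44) and Ndufc2 (0.46) in CA3 PNs, and Atp5mg (-0.65) and Ndufa8 (0.39) in DGCs. Atp5mg in DGCs had 18.1, 22.0 and 24.7 CPM in ChN and 8.64, 13.4 and 20.0 CPM in ChP libraries of 2N mice, which overlapped. In Ts mice they were Ndufab1 (-0.43), Ndufb11 (0.43) and Atp5me (0.48) in CA1 PNs, Ndufs5 (0.46), Sdhc (0.50) and Atp5mc1 (-0.45) in CA3 PNs, and Cox6c (0.20) and Cox5a (-0.32) in DGCs. For the interaction they were Ndufa13 (0.59) and Atp5mc2 (1.90) in CA1 PNs, Atp5mc1 (-0.63), Atp5me (0.62) and Atp5mf (0.42) in CA3 PNs, and Atp5mg (0.78), Ndufa13 (0.43), Ndufs3 (-0.61) and Uqcrh (-0.49) in DGCs. Each of these LFCs had an unadjusted p under 0.05 and an adjusted p above it.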

How the data were processed

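RNA of laser-captured CA1 PNs, CA3 PNs and DGCs was sequenced with a stranded total RNA kit. Per the submitters' processing notes and the study's methods, the authors used FastQC 0.11.9, Trimmomatic 0.39, STAR, Picard 2.26.2 and RSEM on GRCm39, and removed 1 Ts CA1 library. The authors deposited RSEM's expected counts and TPM per gene, without further normalization. RSEM divides reads among near-identical copies, so members with pseudogenes have less certain values. Total counts of 358355 to 4744040 set the precision, and the SE between mice gives it.

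Expected counts were rounded, a gene entered a comparison where 10 or more of its libraries exceeded 0.1 CPM, and edgeR 4.0.16 (R 4.3.3) was used: TMM, robust quasi-likelihood fits and two-sided tests, with Benjamini-Hochberg adjustment over all genes. In fits of 10 or fewer libraries all but 1 had to exceed 0.1 CPM instead. This holds for genotype in CA1 PNs without the libraries with CA2 markers, so those backgrounds come from another filter. The study's model used DREAM with covariates that were not used here. Genotype, diet and their interaction were fitted within a population. Populations were compared within a mouse group with mouse as block, since libraries with the same number come from the same animal per the labels. Each mouse is a replicate. Levels are CPM scaled with TMM (log2 with a prior count of 2). Deposited TPM were rescaled over nuclear protein-coding genes and, for library means, logged with a pseudocount of 1.

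The named members are the 2 triplicated ones, up to 3 members a direction with the smallest p among adjusted calls of a genotype, diet or interaction comparison (where there were none, up to 2 among unadjusted calls), 5 a direction for populations in 2N ChN mice, subunits with isoforms, and the highest and lowest member of a complex. 1 member that the rule names is not reported here, though the counts and medians include it. Members and lists were chosen with earlier results of these data known. Promoters come from RefSeq, GRCm38.p6, whose coordinates were not converted. Copies elsewhere were sought with blastn 2.17.0 (97% identity over 50 bases). The fits were tested on simulated data. Alternatives were DESeq2 1.42.0, limma-voom 3.58.1, library totals, no filter, 1 surrogate variable (sva 3.50.0), both diets in 1 fit, no block, other TPM scales, leaving out each mouse and, added after seeing the data, leaving out the 10 CA1 libraries with CA2 markers and rescaled TPM.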

Additional observations from a re-analysis of the deposited data

Results flagged for a closer look

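7 of 120 group values examined held a sample far from the rest of its group, where chance gives about 1 in 20, so their number is near that of chance. The values are not independent, since the mean over all members includes those of each complex. Values are log2 CPM, as means where several genes are meant. Mouse 16-90 of the 2N ChP group gave 3 of them. Its CA1 library had 6.039 over all members (the other 6 had 5.431 to 5.686) and 6.363 over complex IV (5.672 to 5.91), and its CA3 library had 5.53 over complex III (5.755 to 5.918). This CA1 library is among the 10 with CA2 markers. Another of those 10, the CA1 library of Ts ChP mouse 15-199, had 7.792 for Atp5pf against 6.675 to 7.039 in the other 8.

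In DGCs the 2N ChN library of mouse 17-21 had 4.623 over complex I (others 4.817 to 4.902), and 1 Ts ChN library had 9.012 over the mitochondrially encoded subunits (others 9.427 to 9.592). In CA3 PNs the Ts ChN library of mouse 16-357 had 5.82 over complex V (others 5.983 to 6.048).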

How the results depend on the processing

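Adjusted calls of members for genotype kept their count under DESeq2, limma-voom, library totals and every left-out mouse in CA3 PNs (2 to 2) and DGCs (2 to 2) of ChN mice and stayed at 0 in CA1 PNs (0 to 0), except that 1 member (Cox6c, lower) passed in CA1 PNs with no filter. Diet and interaction gave 0 throughout. CA1 PNs against DGCs gave 31 to 40 calls and CA3 PNs against DGCs 40 to 48 with a 2N ChN mouse left out, and CA1 against CA3 PNs 1 to 13 (13 without mouse 17-21, 1 without 17-172, 2 without 15-147; median LFC -0.13 to 0.03). The mouse pairs the populations. With no replicate block 2N ChN mice gave 39 calls for CA1 PNs against DGCs, 48 for CA3 PNs against DGCs and 6 for CA1 against CA3 PNs, and 2N ChP mice 5 for the last. For CA1 against CA3 PNs, DESeq2 gave 3 calls in 2N ChN, 5 in 2N ChP and 9 in Ts ChN mice, and the CA3 library of mouse 15-145 under its own label gave 3 in 2N ChN mice. Without the libraries with CA2 markers there were 14, 19 and 20 calls in 2N ChN, 2N ChP and Ts ChP mice (median LFC -0.16 in 2N ChP), and for CA1 PNs against DGCs 13 in 2N ChP (median 0.23) and 32 in Ts ChP mice.

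TMM moved all genes relative to library totals by over 0.1. In 2N ChN mice the all-gene median went from -0.04 to -0.18 for CA1 PNs against DGCs and from -0.05 to -0.24 for CA3 PNs. Members lay 0.47 and 0.51 above it on both scales. That gap is nearly fixed by construction, since a change of scale moves every gene of a library alike. With totals CA1 PNs against DGCs gave 26 calls (median 0.29), 24 and 15 in 2N ChN, 2N ChP and Ts ChN mice and a median of 0.27 in Ts ChP. CA3 PNs against DGCs gave medians of 0.27, 0.25 (25 calls), 0.24 and 0.17, and CA1 against CA3 PNs -0.036 in Ts ChN mice. Protein-coding TPM gave CA3 PNs minus DGCs as 0.16, 0.032, 0.23, 0.10 and 0.18 for complexes I to V and 0.15 over all members. Deposited TPM, of which protein-coding genes hold 9.05 to 59.6% in a library, gave CA1 PNs minus CA3 PNs as -0.38, -0.36, -0.41, -0.46 and -0.40 (all members -0.39) and CA1 PNs minus DGCs as 0.084, -0.020, 0.12, -0.053 and 0.079 (all members 0.064). The genotype LFC of Atp5po in CA1 PNs minus that in CA3 PNs, which was not called, changed sign to 0.035 (ChN) and 0.062 (ChP) without the libraries with CA2 markers and to 0.017 (ChP) with no replicate block. With totals the correlation of nuclear-encoded and mitochondrial means was 0.39 over all CA1 libraries, which fall into nearly separate sets, and -0.080 over CA3 libraries, against 0.64 and 0.32 with TMM. Apart from a block, a scale's construction and samples left out, the cause was not tested. Of the values of named genes, 30 lost their call under some alternative, most of them for CA1 against CA3 PNs.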

Other observations

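Library by library, the mean log2 CPM of the nuclear-encoded members was set against that of the 7 mitochondrially encoded subunits, each after subtracting its group mean. CA1 libraries fell into nearly separate sets on the mitochondrial side (9.68 to 10.45 in the 10 with CA2 markers and 8.92 to 9.70 in the other 17), so each set was taken by itself, which with CA3 PNs and DGCs gave 4 relations. Libraries were permuted within their groups. These sets were defined after seeing the data. In the 17 CA1 libraries Pearson's r was 0.10 (permutation p = 0.76) and Spearman's rho 0.15 (permutation p = 0.61). Among the libraries with CA2 markers, 1 of which was alone in its group and was left out, r was 0.82 (n = 9, exact permutation p = 0.014, 0.056 after Benjamini-Hochberg adjustment over the 4 sets) and rho 0.55 (exact permutation p = 0.090), and r was 0.77 without the 2 libraries farthest from the median. After adjustment no relation passed. Permuted without regard to groups, which overlooks the subtracted means, r of 0.82 had an adjusted permutation p of 0.031. In CA3 PNs r was 0.32 (n = 26, permutation p = 0.23) with rho of 0.21, and r fell to 0.03 without 2 libraries. In DGCs r was -0.09 (n = 28, permutation p = 0.68). All tests were two-sided. The nuclear mean also moved with log2 total counts, with r of 0.41, 0.73 and 0.49 (CA1 PNs, CA3 PNs, DGCs), and r was 0.50, 0.55 and -0.09 for the mitochondrial mean. With library totals in place of TMM these were 0.23, 0.45 and 0.36 for the nuclear and 0.47, 0.45 and -0.19 for the mitochondrial mean. The populations differed in median total counts, and the part of depth was not tested.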
